A study of Mus musculus with 19 samples.

Results

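The Myc, Max and Mxd network is a group of transcription factors that share a basic helix-loop-helix leucine zipper. It was followed here at the transcript level in sorted mouse thymocytes that lacked Rptor or did not. Members were the 10 genes Myc, Mycn, Mycl, Max, Mxd1, Mxd3, Mxd4, Mxi1, Mnt and Mlx, each read by the probe set that carried that single gene symbol and, where a gene had several, had the highest mean over all 19 arrays. All 10 were measured, out of 22180 genes on the array. No filter on low signal was set, so none was left out.

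Cells were sorted from the thymus of C57BL/6 mice of unstated age. The Rptor-/- groups came from CD2-cre mice crossed with Raptorfl/fl mice, in which the Cre recombinase is driven by the lymphocyte gene CD2 and removes the loxP-flanked gene of Raptor, the subunit that defines the kinase complex mTORC1. The other groups are labelled WT, and the labels do not say whether those mice carried the Cre. There were 3 Rptor-/- and 3 WT arrays of γδ T cells, 3 Rptor-/- and 3 WT arrays of DN3a thymocytes, and 3 Rptor-/- and 4 WT arrays of immature single positive (ISP) T cells. DN3a cells are CD4 and CD8 double negative, CD25-high thymocytes before the choice between the αβ and γδ lineages, and ISP cells are CD8-positive, TCRβ-negative cells of the αβ branch. The γδ gate, as the labels list it, removed CD4, CD8, TCRβ, NK1.1 and Gr1 and names no positive marker. Nothing in the labels ties each replicate to an animal of its own. The p-values therefore describe the scatter among these arrays, part of which may be technical.

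Myc, Mycn and Mycl bind DNA only as a dimer with Max, and at the hexamer CACGTG, called the E-box, such dimers activate genes of ribosome biogenesis, nucleotide and polyamine synthesis and cell cycle entry. Mxd1, Mxd3, Mxd4, Mxi1 and Mnt also dimerise with Max, bind the same hexamer and recruit Sin3 corepressors, so that they oppose Myc. Mlx is a second partner protein, which pairs with Mxd1, Mxd4 and Mnt and with the glucose-sensing factors Mlxip and Mlxipl. In the thymus, Myc is a target of Notch and is needed for the growth of early thymocytes.

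By the RefSeq annotation of GRCm38.p6, Myc lies at chr15:61985341-61990361, Mycn at chr12:12936093-12941836 and Mycl at chr4:122995588-123002490. Max lies at chr12:76937269-76962323 and Mlx at chr11:101086707-101092207. Among the antagonists, Mxd1 lies at chr6:86647044-86669234, Mxd3 at chr13:55325170-55329900, Mxd4 at chr5:34176580-34187710, Mxi1 at chr19:53310128-53373293 and Mnt at chr11:74830806-74845725. Which exons the probes read was not used here.

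The E-box was looked for, as the palindrome CACGTG, which reads the same on both strands, in RefSeq promoter windows of GRCm38.p6 that run from 250 bases before to 50 bases after an annotated start. It was found in 4 of the 9 members with an entry, namely Max, Mxd4, Mnt and Mlx, and in 8.09% of the 27025 genes in that table. Among listed genes known to be activated by Myc it was found in 9 of 28 with an entry. These lines give the 30 bases around the hexamer in those 4 members, since some genes of a network that binds this motif also hold it in their own promoter windows. They also give it in 3 of the 9 listed targets. These are examples picked from the 7 of those 9 that were lower in Rptor-/- ISP cells. All run 5′ to 3′ on the gene's strand with the hexamer in capitals.
Max (chr12:76962234-76962263, minus strand): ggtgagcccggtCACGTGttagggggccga
Mxd4 (chr5:34187912-34187941, minus strand): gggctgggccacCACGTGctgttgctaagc
Mnt (chr11:74830789-74830818, plus strand): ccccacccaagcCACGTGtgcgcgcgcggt
Mlx (chr11:101087238-101087267, plus strand): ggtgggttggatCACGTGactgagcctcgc
Nop2 (chr6:125131811-125131840, plus strand): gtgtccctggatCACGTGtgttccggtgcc
Slc16a1 (chr3:104638452-104638481, plus strand): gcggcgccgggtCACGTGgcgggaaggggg
Pes1 (chr11:3963965-3963994, plus strand): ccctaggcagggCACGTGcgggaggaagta
The match is a description of these letters and not of a bound site.

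The 7 ISP arrays had median log2 signals of 3.80 to 3.88 and the 12 γδ and DN3a arrays of 6.03 to 6.13, so ISP values were compared only with ISP values. Within a group of ISP arrays, 27% of genes in Rptor-/- and 35.8% in WT had the same value on at least 2 arrays, against at most 0.0812% in each γδ or DN3a group. Mycn, Mycl, Max, Mxd1 and Mlx carried such ties. Rptor itself was lower in Rptor-/- cells by limma in each population, with log2 differences of −0.24 in ISP (adjusted p = 0.0384), −0.58 in DN3a (adjusted p = 5.975e-04) and −0.30 in γδ T cells (adjusted p = 0.0489). The ISP call of Rptor was lost without Rptor-/- arrays 1 or 2 or WT arrays 1, 2 or 4, and the γδ call without any of its 6 arrays. Whether the Rptor probe set reads the deleted exons is not known here. Of the cell type markers, 5 of 5 measured DN3a markers were lower and 4 of 4 measured γδ markers higher in WT γδ than in WT DN3a cells, and Cd8a read 11.2 to 11.5 on the ISP arrays. In γδ T cells 5 of 6 markers of mature αβ T cells and 3 of 4 of natural killer and innate lymphoid cells were also higher than in DN3a cells, although the gate removed TCRβ and NK1.1.

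WT γδ T cells were compared with WT DN3a cells to see how the network differs between a progenitor stage and the γδ lineage. Myc and Mycn were lower in γδ T cells, and Mxd1 and Mlx were higher. These 4 of 10 members, 2 in each direction, stood beside 25.1% of all genes called in this comparison, 12.7% higher and 12.3% lower. Signal in such bulk samples cannot tell apart fewer cells of a type and less RNA per cell.

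Myc, the main family member in growing lymphocytes, had a log2 signal of 9.01, 9.29 and 9.15 on the 3 WT γδ arrays, against 10.70, 10.84 and 10.93 on the 3 WT DN3a arrays. Every γδ array lay below every DN3a array. The difference was −1.68 (SE 0.11, limma adjusted p = 1.951e-10), a 3.20-fold lower signal, and the call held without each array in turn. Mycn, a relative best known from the nervous system, measured 6.43, 6.20 and 6.36 in WT γδ T cells and 6.96, 6.63 and 7.02 in WT DN3a cells. Its groups did not overlap, and the difference was −0.54 (SE 0.10, limma adjusted p = 4.068e-04), 1.45-fold lower. Mycl, the family member first found in lung cancer, gave 5.40, 5.64 and 5.72 in γδ and 5.59, 5.48 and 5.51 in DN3a arrays, which overlapped, and the 95% interval of the Mycl difference ran from −0.15 to 0.27. On γδ and DN3a arrays of either genotype Mycl lay below the array medians of 6.03 to 6.13, at percentile 34.9 among genes. A small Mycl difference there may reflect low signal.

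Max, the shared partner, differed by 0.027 between WT γδ and WT DN3a cells, with a 95% interval of −0.14 to 0.20. Its signal lay between 10.18 and 10.22 in γδ and between 10.10 and 10.23 in DN3a arrays. Mlx, the alternative partner, measured 9.26, 9.38 and 9.46 in γδ T cells against 9.14, 9.12 and 9.18 in DN3a cells. Every γδ array exceeded every DN3a array, and the difference of 0.22 (SE 0.07) passed the threshold by limma (adjusted p = 0.0360). The Mlx call was lost without WT DN3a array 1, 2 or 3 or WT γδ array 2 or 3 (values from 0.17 to 0.24), and when each array was centred on its median (0.20, adjusted p = 0.0774).

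Among the antagonists, Mxd1, which is induced when many cell types leave the cycle, measured 9.16, 9.04 and 9.14 in WT γδ T cells and 8.73, 8.68 and 8.73 in WT DN3a cells. The Mxd1 groups were apart by more than the spread within either, with a difference of 0.40 (SE 0.10, limma adjusted p = 0.00545). Mxd3, the Mxd gene that is expressed in proliferating cells, gave 7.62, 7.70 and 7.68 against 7.35, 7.39 and 7.42, groups that did not overlap, but its difference of 0.28 (SE 0.12) did not pass the threshold (limma adjusted p = 0.122). Mnt, the most widely expressed antagonist, gave 8.71, 8.49 and 8.40 against 8.29, 8.17 and 8.21 and likewise did not pass at 0.31 (SE 0.11, limma adjusted p = 0.0533). Other settings called both, Mxd3 under 3 of them (adjusted p down to 0.0166) and Mnt under 5 (adjusted p down to 0.0232), fits of only the compared arrays included. Mxd4 differed by 0.11 (95% interval −0.093 to 0.31). Mxi1 differed by −0.24 (95% interval −0.48 to 0.011), and by −0.067 when read by its other probe set. On γδ and DN3a arrays the probe set used read lower (6.46 to 7.15) than the other (7.50 to 7.87). It read higher only on ISP arrays (9.77 to 10.38 against 6.76 to 7.10), which gave it the highest mean. Which transcript the used probe set reads was not tested, so Mxi1 values in γδ and DN3a cells are uncertain. Groups did not overlap for 6 of the 10 members, beside 38.9% of all genes.

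**Figure D1:**
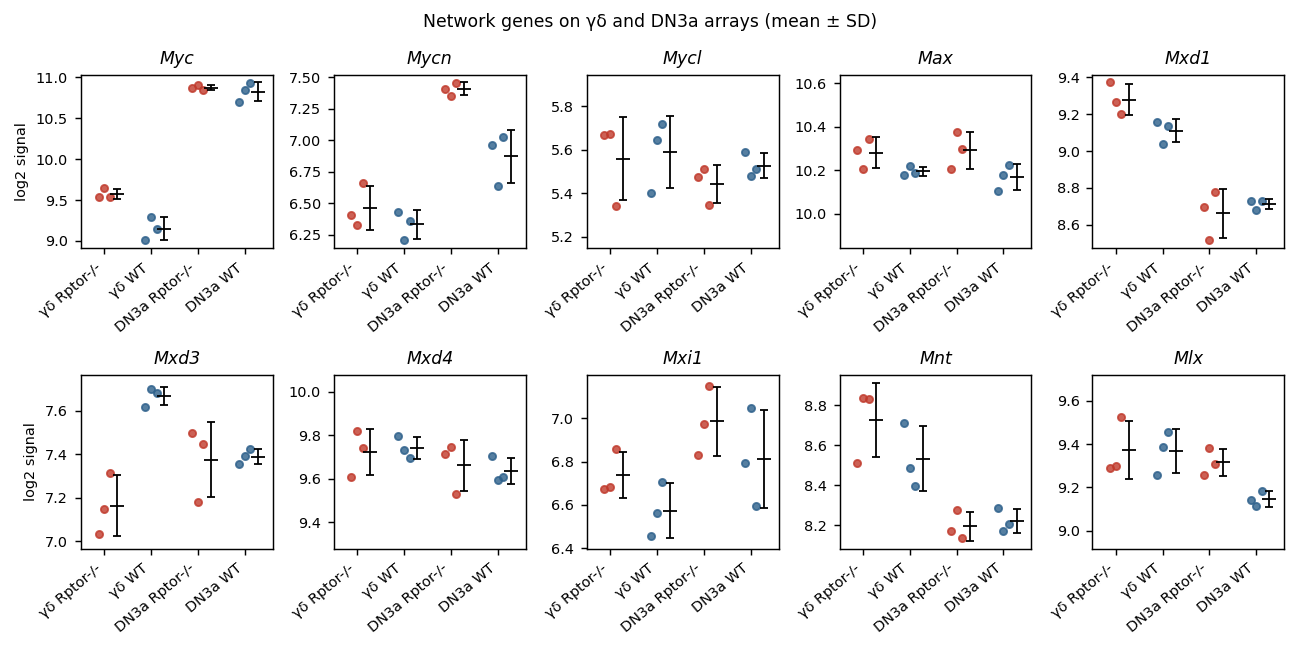
Log2 signal of the 10 network genes on each γδ and DN3a array, by population and genotype, with the group mean and SD as a bar at the right of the points (n = 3 each) and an own vertical scale in each panel. Myc lies at 9.01 to 9.64 on γδ arrays and 10.70 to 10.93 on DN3a arrays. Mxi1 is drawn from the probe set used, which read lower than its other probe set on these arrays.

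The pathway around the network was described by lists of genes. Among 33 measured genes known to be activated by Myc, 20 were lower in WT γδ than in WT DN3a cells and 0 higher, while 13 missed the threshold, with a median difference of −0.42 beside −0.0041 over all genes. Gnl3, a nucleolar GTPase, differed by −1.28 (SE 0.09), Dkc1, the pseudouridine synthase dyskerin, by −1.10 (SE 0.09), Polr1b, a subunit of RNA polymerase I, by −1.29 (SE 0.12) and Prps2, which makes the nucleotide precursor PRPP, by −0.81 (SE 0.07). Genes known to be repressed by Myc went both ways, with 4 of 11 higher and 3 lower. The cell cycle inhibitor Cdkn1a differed by −3.70 (SE 0.19) and Ndrg1, a stress-response gene, by −2.56 (SE 0.12), whereas its relative Ndrg2 differed by 1.93 (SE 0.13) and Ddit3, which encodes the stress factor CHOP, by 0.85 (SE 0.10). Of 11 cycling genes the cyclin gene Ccnb2 was higher, at 0.53 (SE 0.15), and Mcm2, a replication helicase subunit, lower, at −0.41 (SE 0.10). The Ccnb2 call was lost without WT DN3a array 1 or WT γδ array 2.

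Of 10 regulators of the Myc transcript, Notch1 differed by −2.05 (SE 0.11) between WT γδ and WT DN3a cells, as one of the genes that also serve here as DN3a markers, and Lef1, a partner of β-catenin, by 0.88 (SE 0.08). Fubp1, which binds an element upstream of Myc, was lower, at −0.29 (SE 0.09, limma adjusted p = 0.0211), as was Rbpj, the DNA-binding partner of Notch, at −0.25 (SE 0.09, limma adjusted p = 0.0374). The Fubp1 call was lost without WT DN3a array 3 or WT γδ array 1 or 2, and that of Rbpj without WT DN3a array 1 or 2 or WT γδ array 1 or 2. Among 13 genes of Myc protein turnover, 2 were higher and 3 lower. Pim2, a kinase that stabilises Myc, was higher by 1.97 (SE 0.16), and the deubiquitinase Usp37 and the ubiquitin ligases Skp2 and Huwe1 were lower, at −0.68 (SE 0.11), −0.61 (SE 0.13) and −0.47 (SE 0.08).

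Cofactors were counted in the same way, beside the 25.1% of all genes called. Of 12 measured coactivators and partners of Myc, 2 were higher and 4 lower in WT γδ T cells. Those lower included the acetyltransferase Kat2a (−0.78, SE 0.07) and the helicases Ruvbl1 (−0.51, SE 0.12) and Ruvbl2 (−0.47, SE 0.08). Trrap, the scaffold that Myc contacts, was higher by 0.27 (SE 0.08), a call that was lost without WT DN3a array 2. Of 7 measured corepressor genes of Mxd and Mnt, 4 were lower and none higher. They were the Sin3 complex subunit Sap30 (−0.89, SE 0.11), the deacetylase Hdac2 (−0.34, SE 0.08), the histone-binding protein Rbbp7 (−0.28, SE 0.08) and Sin3b (−0.24, SE 0.07). Without WT DN3a array 3 or WT γδ array 2 the calls of Rbbp7 and Sin3b were lost, as was that of Rbbp7 without WT γδ array 1 and that of Sin3b without WT DN3a array 2. Mga, which pairs with Max and has a repressor domain of its own, was lower, at −0.49 (SE 0.09), and its 2 companions in that list, Mlxip and Mlxipl, did not pass the test.

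Rptor-/- and WT γδ T cells were compared next. Myc was higher in Rptor-/- γδ T cells and Mxd3 was lower, and no other member passed the test. These 2 of 10 members stood beside 3.05% of all genes called, 1.77% higher and 1.28% lower. The comparison shares its WT γδ arrays with the comparison of WT γδ and WT DN3a cells.

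Myc had a log2 signal of 9.53, 9.64 and 9.54 in Rptor-/- γδ T cells and 9.01, 9.29 and 9.15 in WT γδ T cells. Every Rptor-/- array lay above every WT array, and all 6 lay below the lowest DN3a array. The Myc difference was 0.42 (SE 0.11, limma adjusted p = 0.0345), a 1.34-fold higher signal. The Myc call was lost without Rptor-/- array 2 or 3 or WT array 1 or 3, with values from 0.35 to 0.44, and when only γδ arrays were fitted (0.42, adjusted p = 0.0703).

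Mxd3 measured 7.03, 7.15 and 7.31 in Rptor-/- γδ T cells, against 7.62, 7.70 and 7.68 in WT γδ T cells. The WT arrays lay close together and above all 3 Rptor-/- arrays. The Mxd3 difference was −0.50 (SE 0.12, limma adjusted p = 0.0320), 1.42-fold lower. The call was kept without Rptor-/- array 3 and lost without any of the other 5 arrays, with values from −0.53 to −0.44.

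Genes of cycling cells moved with Mxd3. Of 11 measured, 10 were lower in Rptor-/- γδ T cells, 0 were higher, and the median difference was −0.76 beside 0.0042 over all genes. Their summed signal on the linear scale was 8563 to 9939 on Rptor-/- and 13114 to 15016 on WT arrays. The proliferation marker Mki67 differed by −0.74 (SE 0.13), the topoisomerase Top2a by −0.76 (SE 0.14), the mitotic cyclin Ccnb2 by −0.81 (SE 0.15) and the replication clamp Pcna by −0.39 (SE 0.07). The count was 6 without WT γδ array 2. The part of cycling cells in the Mxd3 result was not tested.

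The other 8 members did not pass the test in γδ T cells. Mxd1 measured 9.37, 9.27 and 9.20 in Rptor-/- and 9.16, 9.04 and 9.14 in WT arrays, which did not overlap, and its difference was 0.17 (95% interval −0.043 to 0.38). Mycn overlapped at 6.40, 6.33 and 6.66 against 6.43, 6.20 and 6.36. Mnt differed by 0.19 (95% interval −0.043 to 0.43), Mycn by 0.13 (−0.084 to 0.35) and Max by 0.085 (−0.086 to 0.26). Mxi1 differed by 0.16 (−0.083 to 0.41), but by −0.088 when read by its other probe set, so its direction is unsettled. Mlx, Mxd4 and Mycl each differed by less than 0.05 in size, with 95% intervals no wider than −0.24 to 0.18. Groups did not overlap for 3 of 10 members, beside 21.0% of all genes.

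None of the 33 genes known to be activated by Myc passed the test in γδ T cells, where Myc signal was higher in Rptor-/-. At an unadjusted p under 0.05, limma placed 4 of them higher and 4 lower, and their median difference was −0.10. None of the 11 genes repressed by Myc, 12 coactivators, 7 corepressors or 10 transcript regulators passed either, with 2, 1, 1 and 3 of them at an unadjusted p under 0.05. Among 13 genes of Myc protein turnover 2 were lower. Cip2a, an inhibitor of the phosphatase that destabilises Myc, differed by −0.65 (SE 0.13), a call that was lost without WT γδ array 2. Skp2 differed by −0.48 (SE 0.13, limma adjusted p = 0.0457), and its call held only without Rptor-/- array 3. Markers of other cells moved in part with genotype. The summed signal of 6 B cell markers was 4732 to 5203 on Rptor-/- and 5993 to 6505 on WT γδ arrays. Of these 0 of 6 were called (3 lower at an unadjusted p under 0.05). Ighm had the highest signal of the 6 (12.05 to 12.19 against 12.42 to 12.55), 2 of 6 had positive differences and the median was −0.16. Over the γδ and DN3a arrays, mean signal of Cd79a, Pax5, Ms4a1 and Ebf1 was low, at percentiles 14.8 to 38.4 among genes. The summed signal of 8 myeloid markers was 705 to 765 on Rptor-/- and 468 to 535 on WT arrays. Of the myeloid markers Fcer1g was higher, at 1.65, while 5 of 8 had negative differences (2 at an unadjusted p under 0.05) and the median was −0.17. Cd14 and S100a8 lay at percentiles 15.1 and 14.8 over the γδ and DN3a arrays. The 3 ISP markers summed to 252 to 321 on Rptor-/- and 594 to 597 on WT γδ arrays, with 2 of 3 lower, and the 5 DN3a markers to 2448 to 2940 against 2144 to 2193, with 1 of 5 higher. Sums that were apart with no marker called were 2086 to 2149 against 1574 to 1939 for 7 dendritic cell markers, 891 to 909 against 940.5 to 1099 for 4 natural killer and innate lymphoid markers, and 116 to 119 against 98.5 to 109 for 2 erythroid markers, with 3, 1 and 1 of them at an unadjusted p under 0.05 by limma. Of the 7 dendritic cell markers Bst2 had the highest signal (10.64 to 10.71 against 10.14 to 10.51). In that list 4 differences were positive and 3 negative, with a median of 0.0013. By limma 2 were higher and 1 lower at an unadjusted p under 0.05. The part of all these markers in the results of Myc and Mxd3 was not tested.

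In DN3a cells the only member that differed by genotype was Mycn, which was higher in Rptor-/- cells. That is 1 of 10 members beside 0.983% of all genes called, 0.712% higher and 0.271% lower, the lowest share among the comparisons of 2 groups.

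Mycn had a log2 signal of 7.41, 7.35 and 7.46 on the 3 Rptor-/- DN3a arrays and 6.96, 6.63 and 7.02 on the 3 WT DN3a arrays. The Rptor-/- values stood close together and above all WT values, of which array 2 was the lowest. The Mycn difference was 0.54 (SE 0.10, limma adjusted p = 0.00950), 1.45-fold higher. It was 0.42 without WT array 2, where the call was lost (adjusted p = 0.0877), and the call was also lost when only DN3a arrays were fitted (adjusted p = 0.0632). Mycn in Rptor-/- DN3a cells was the highest of its 4 γδ and DN3a groups, at 7.41 ± 0.05, followed by WT DN3a at 6.87 ± 0.21, Rptor-/- γδ at 6.46 ± 0.17 and WT γδ at 6.33 ± 0.12 (SD, n = 3 each), and each of the last 3 groups overlapped its neighbour among them.

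Myc did not differ detectably between genotypes in DN3a cells, at 10.87, 10.91 and 10.85 in Rptor-/- and 10.70, 10.84 and 10.93 in WT arrays. The Myc difference was 0.049, with a 95% interval of −0.17 to 0.27. Mlx measured 9.26, 9.38 and 9.31 against 9.14, 9.12 and 9.18, groups that did not overlap, but its difference of 0.17 (SE 0.07) missed the threshold (limma adjusted p = 0.429). Mxi1 differed by 0.18 (95% interval −0.072 to 0.42) and Max by 0.12 (−0.047 to 0.29), with overlapping arrays. The other probe set of Mxi1 gave 0.11, which was not called either. Mxd1, Mxd3, Mxd4, Mnt and Mycl lay between −0.084 and 0.028, with 95% intervals that reached from −0.30 at the lowest to 0.25 at the highest. Groups did not overlap for 2 of 10 members, beside 17.1% of all genes.

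None of the 33 genes activated by Myc passed the test in DN3a cells, where 4 were lower and 0 higher at an unadjusted p under 0.05 by limma, and their median was −0.078 beside 0.011 over all genes. Cycling genes likewise had 0 of 11 called and 4 lower at an unadjusted p under 0.05, with a median of −0.27. Of 11 repressed targets 2 were higher, Ndrg1 by 0.57 (SE 0.12) and Ndrg2 by 0.65 (SE 0.13). The Ndrg1 call was lost without Rptor-/- array 1 or 2 or WT array 2 or 3, and the Ndrg2 call without Rptor-/- array 1 or WT array 2 or 3. Lef1 was higher by 0.76 (SE 0.08, limma adjusted p = 2.478e-05) and was the only called gene among 10 regulators of the Myc transcript. No coactivator, corepressor or turnover gene was called, of which 0, 0 and 4 had an unadjusted p under 0.05. The summed signal of 6 B cell markers was 2242 to 3136 on Rptor-/- and 4086 to 4671 on WT DN3a arrays, with 1 of 6 lower. That marker was Ighm (−0.86), which had the highest signal of the 6, while 3 of 6 had positive differences and the median was −0.021. The summed signal of 8 myeloid markers was 519 to 650 against 456 to 509. Of the myeloid markers Lyz2 was higher, at 1.04, while 6 of 8 had negative differences and the median was −0.096. The 5 DN3a markers summed to 17146 to 18139 against 13280 to 13856, with 2 of 5 higher. The 5 T lineage markers summed to 29721 to 30161 against 26006 to 26611, with 1 of 5 higher. For the 3 ISP markers the sum was 2822 to 2958 against 1840 to 2122, with 1 of 3 higher. That marker was Ptcra (0.68), also a DN3a marker, while 2 of 3, Cd8a and Cd8b1, had negative differences and the median was −0.26. Sums were also apart for 7 thymic stroma markers (1130 to 1260 against 859 to 1003, 1 of 7 higher) and 4 γδ markers (602 to 618 against 484 to 556, 1 of 4 higher). The stroma marker higher was Epcam (0.67), while 4 of 7 had negative differences (median −0.021). Among γδ markers Sox13 was higher (0.51), while 2 of 4 had negative differences (median 0.0032). For 6 mature αβ markers the sum was 914 to 1020 against 824 to 871, with 0 of 6 called and 1 at an unadjusted p under 0.05 by limma. The part of all these markers in the Mycn result was not tested.

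**Figure D2:**
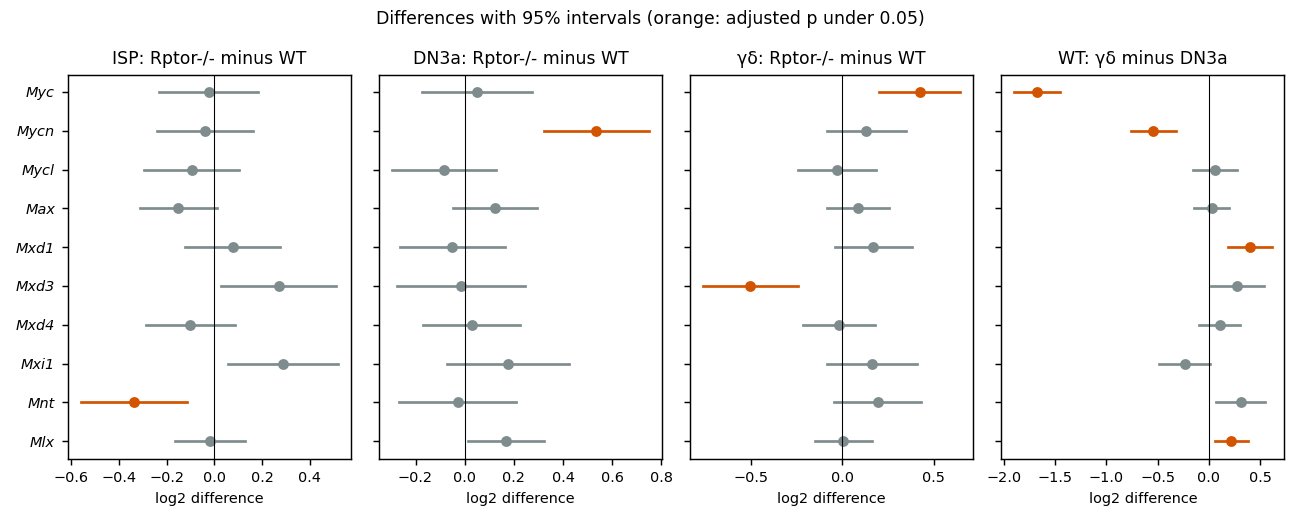
Log2 difference of each network gene in 4 comparisons (horizontal axis, own scale in each panel), as a point with its 95% interval, orange where the limma adjusted p is under 0.05. Of 10 genes, 1 is orange in ISP cells (Mnt), 1 in DN3a cells (Mycn), 2 in γδ T cells (Myc and Mxd3) and 4 between WT γδ and DN3a cells (Myc, Mycn, Mxd1 and Mlx). Mxi1 is drawn from the probe set used, which read lower than its other probe set on γδ and DN3a arrays.

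In ISP cells the comparison of Rptor-/- with WT called Mnt, which was lower in Rptor-/- cells, and no other member. That is 1 of 10 members beside 12.4% of all genes called, 5.87% higher and 6.57% lower, so the share of members is near the background.

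Mnt had a log2 signal of 6.19, 6.31 and 6.66 in Rptor-/- ISP cells and 6.70, 6.64, 6.83 and 6.74 in WT ISP cells. The groups overlapped, since Rptor-/- array 3 stood above WT array 2. The Mnt difference was −0.34 (SE 0.11, limma adjusted p = 0.0410), 1.26-fold lower. Without Rptor-/- array 1 it was −0.24 and without array 2 −0.30, and the call was lost in both cases and also without WT array 1, 3 or 4 (values from −0.35 to −0.31). A fit of the 7 ISP arrays alone did not call it either (−0.34, adjusted p = 0.157).

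Myc in ISP cells measured 8.84, 9.13 and 8.82 in Rptor-/- and 8.95, 8.98, 9.15 and 8.72 in WT arrays, and the 2 groups covered nearly the same range. The Myc difference was −0.024, with a 95% interval of −0.23 to 0.18. Max measured 9.81, 10.04 and 10.05 against 10.06, 10.09, 10.27 and 10.06. All Rptor-/- values of Max lay below all WT values, narrowly at the closest pair, and the difference of −0.15 (95% interval −0.31 to 0.0086) did not pass. Max was the 1 member of 10 whose groups did not overlap, beside 16.7% of all genes.

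Mxi1 differed by 0.29 (SE 0.11, limma adjusted p = 0.108) and Mxd3 by 0.27 (SE 0.12, limma adjusted p = 0.167). Mxd3 was highest on Rptor-/- array 1 at 7.18, with the other Rptor-/- arrays at 6.68 and 6.58 and the WT arrays at 6.38 to 6.64. Mxi1 has another probe set, which gave 0.23 (adjusted p = 0.0393) and so a call, and the mean of both gave 0.26 (adjusted p = 0.0319). The 6 genes next in probe set number to the one used lie on the minus strand of chromosome 19, while Mxi1 and the 6 neighbours of the other probe set lie on the plus strand. Both probe sets read higher in Rptor-/- ISP cells, while their directions differed in γδ T cells. Which transcript the used probe set reads was not tested, so its values for Mxi1 are uncertain. Mycn at 3.85 to 4.07 and Mycl at 2.61 to 2.95 lay near or below the array medians in both genotypes. Their differences were −0.040 (95% interval −0.24 to 0.16) and −0.095 (−0.29 to 0.10). Mxd1 differed by 0.076 (−0.12 to 0.27), Mxd4 by −0.10 (−0.29 to 0.085) and Mlx by −0.018 (−0.16 to 0.13).

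**Figure D3:**
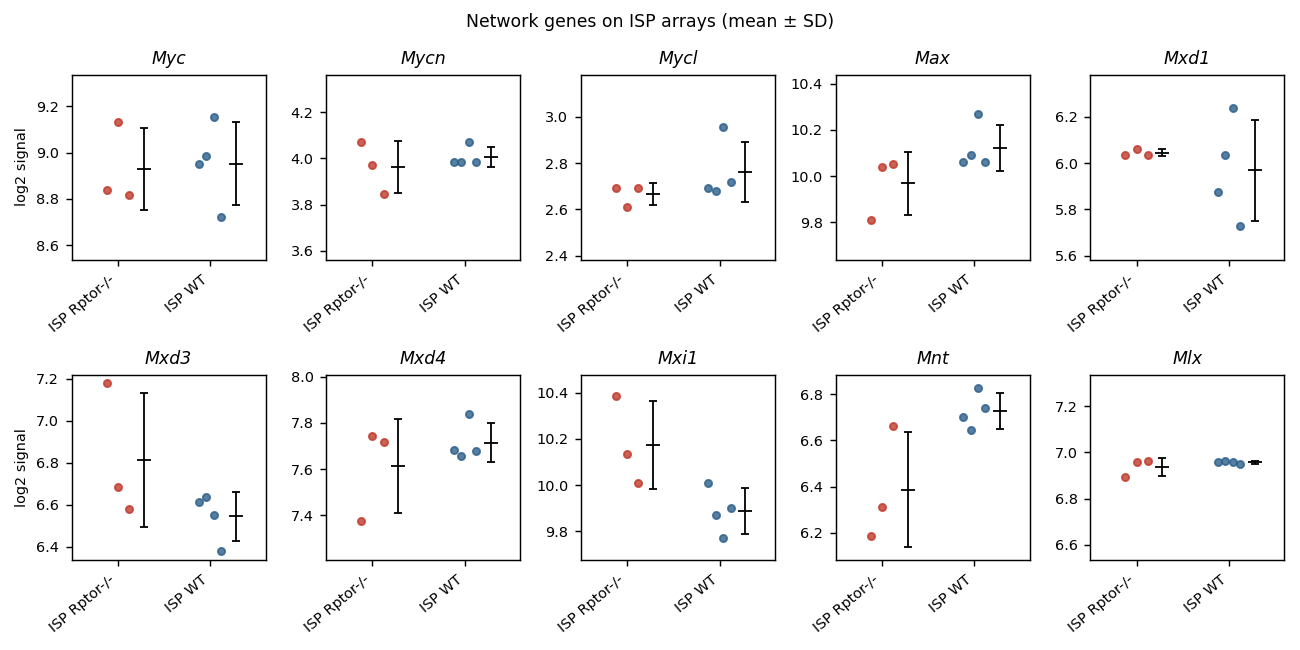
Log2 signal of the 10 network genes on each of the 3 Rptor-/- and 4 WT ISP arrays, with the group mean and SD at the right of the points and an own vertical scale in each panel. Mnt lies at 6.19 to 6.66 in Rptor-/- and 6.64 to 6.83 in WT arrays, and Myc covers 8.82 to 9.13 and 8.72 to 9.15.

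Targets of Myc differed in ISP cells although Myc signal was not called. Of 33 measured genes known to be activated by Myc, 22 were lower in Rptor-/- ISP cells, 1 was higher and 10 did not pass, with a median difference of −0.43 beside −0.0039 over all genes. The lowest p-values were those of Bop1, a ribosome assembly factor, at −0.67 (SE 0.08), the D-type cyclin Ccnd2 at −1.06 (SE 0.13), the spermidine synthase Srm at −0.87 (SE 0.11) and Odc1, the rate-limiting enzyme of polyamine synthesis, at −0.72 (SE 0.10). Ccnd2 measured 5.09, 5.13 and 5.59 in Rptor-/- and 6.25, 6.22, 6.75 and 6.13 in WT ISP cells, and Srm 8.63, 8.52 and 8.47 against 9.41, 9.60, 9.44 and 9.19. Neither pair of groups overlapped. The exception, named after its value was seen, was the helicase gene Eif4a1, higher by 0.57 (SE 0.11), and it was not called when all its probe sets were averaged. Between 19 and 24 listed genes were called without each array in turn, 19 with ISP arrays alone and 0 with the replicate number as a block, which called no gene at all in ISP cells. Of the 9 listed targets with CACGTG in a promoter window 7 were lower and 1, Eif4a1, was higher. Of the 19 without it 11 were lower, as were 4 of the 5 with no promoter entry. Between WT γδ and WT DN3a cells, 5 of the 9 and 12 of the 19 were lower. A tie between the motif and the calls was not tested.

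The rest of the pathway in ISP cells was mixed. Of 11 repressed targets 1 was higher, the antiproliferative gene Btg1 by 0.53 (SE 0.11), and 1 was lower, Ndrg1 at −0.62 (SE 0.11). Among 12 coactivators and partners 4 were lower and none higher, namely Mycbp, a Myc-binding protein (−0.64, SE 0.10), Kat2a (−0.39, SE 0.07), the histone-methylation scaffold Wdr5 (−0.31, SE 0.08) and Ruvbl2 (−0.28, SE 0.08). The Ruvbl2 call was lost without Rptor-/- array 2 or 3 or WT array 1 or 2. Of 7 corepressor genes Sap30 was lower, at −0.54 (SE 0.10), and of 13 turnover genes the kinase Gsk3b, which marks Myc for degradation, was higher by 0.50 (SE 0.08). Lef1 and Notch1 were higher by 0.68 (SE 0.07) and 0.56 (SE 0.10) among 10 transcript regulators, and Mga was higher by 0.39 (SE 0.08). Of 11 cycling genes 2 were lower, the replication helicase subunits Mcm5 at −0.54 (SE 0.11) and Mcm2 at −0.36 (SE 0.09), and the median of that list was −0.099. With ISP arrays alone the calls of Notch1, Btg1, Mcm2 and Ruvbl2 were lost. Markers of other cells differed in part. The summed signal of 5 DN3a markers was 2237 to 2469 on Rptor-/- and 1591 to 1649 on WT ISP arrays, with 4 of 5 higher. That of 4 γδ markers was 171 to 182 against 477 to 596, with 1 of 4 lower. That marker was Id3 (−2.29), while 2 of 4 had positive differences and the median was 0.022. For 6 B cell markers the sum was 1441 to 1538 against 1813 to 2043, with 1 of 6 lower. That marker was Ighm (−0.40), which had the highest signal of the 6, while 3 of 6 had positive differences (median 0.0042). On ISP arrays Ms4a1, Ebf1, Cd79a and Pax5 lay at percentiles 8.29 to 53.0 among genes. Summed signal was 13703 to 14013 against 12557 to 13486 for 5 T lineage markers, with 1 of 5 higher. It was 428 to 494 against 501 to 569 for 7 dendritic cell markers, with 0 of 7 called and 2 at an unadjusted p under 0.05 by limma. Their part in the results of Mnt and of the listed targets was not tested.

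**Figure D4:**
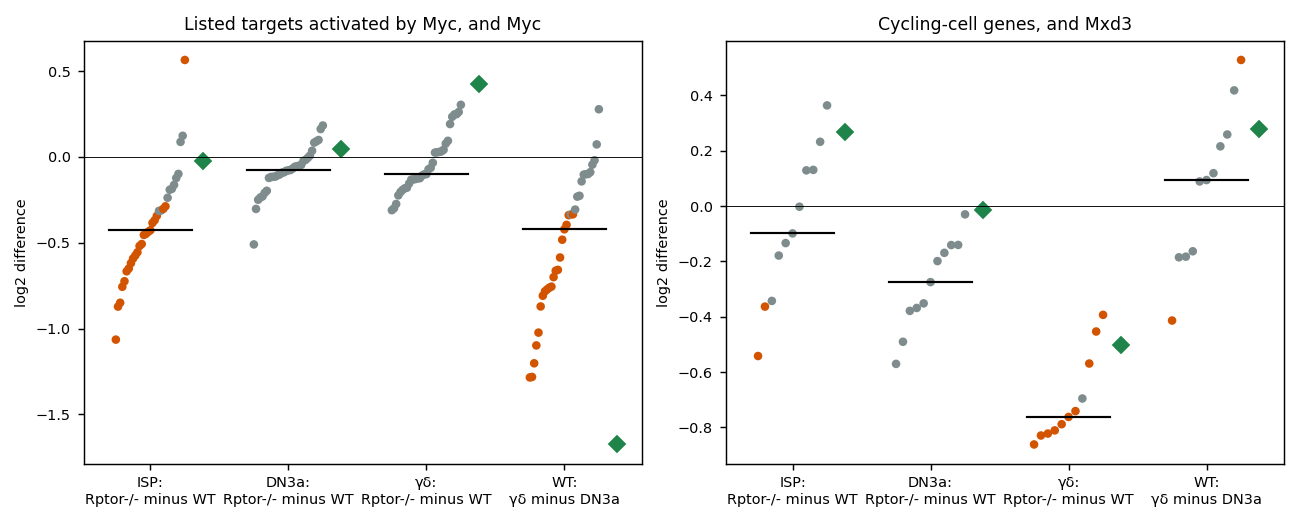
Log2 differences of listed genes in 4 comparisons, each dot a gene, orange where the limma adjusted p is under 0.05, with a bar at the list's median and a green diamond for the network gene named in the panel title. Left, 33 genes known to be activated by Myc, with Myc: medians are −0.43 in ISP cells, −0.078 in DN3a cells, −0.10 in γδ T cells and −0.42 between WT γδ and DN3a cells. Right, 11 cycling genes, with Mxd3: the medians are −0.099, −0.27, −0.76 and 0.094.

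The genotype effects were then set against each other by interaction terms of the same limma fit. ISP arrays belong to another scale than the rest, so sizes across that boundary carry this limit. For Mycn, the genotype effect in ISP cells minus that in DN3a cells was −0.58 (SE 0.14, adjusted p = 0.0164). This call was lost without Rptor-/- ISP array 3 (−0.52) or WT DN3a array 2 (−0.46). Mycn signal on ISP arrays was low, at percentile 49.5 among genes, and 3 WT ISP arrays held the same value. The filter on low signal left Mycn out, so the term was not tested there, and a small ISP effect may reflect low signal. Mxd3 differed in its genotype effect between ISP and γδ T cells by 0.77 (SE 0.17, adjusted p = 0.0102), and this was kept without each array. For Mnt the effect in ISP minus that in γδ T cells was −0.53 (SE 0.16, adjusted p = 0.0493), and it was kept without 3 of 13 arrays. The Myc effect in γδ T cells was not shown to differ from that in DN3a cells (0.37, SE 0.15, adjusted p = 0.426), nor was the ISP effect from the γδ effect (−0.45, SE 0.15, adjusted p = 0.0812). That last Myc term was called under 3 alternatives, without genes of low signal (adjusted p = 0.0393), with median centring (−0.50, adjusted p = 0.0468) and with an intensity trend (adjusted p = 0.0486). Neither were the effects in γδ and DN3a cells shown to differ for Mycn (−0.40, SE 0.15, adjusted p = 0.350) or Mxd3 (−0.49, SE 0.18, adjusted p = 0.350). Shares of all genes called were 7.01% for ISP against DN3a, 5.78% for ISP against γδ and 0.600% for γδ against DN3a.

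The genes most like Myc were found by the distance between their 4 log2 differences and those of Myc, among 339 genes called both by genotype in γδ T cells and between WT γδ and DN3a cells. They were the lysine methyltransferase gene Smyd2 (distance 0.22), the glycosyltransferase gene Mgat4a (0.30), Unc93b1, which carries Toll-like receptors to endosomes (0.37), Tpd52 (0.40) and Frmd4a (0.44). Smyd2 differed by −0.038 in ISP, 0.22 in DN3a and 0.44 in γδ T cells by genotype and by −1.54 between WT γδ and DN3a cells, where Myc had −0.024, 0.049, 0.42 and −1.68. The γδ genotype call of Mgat4a was lost without any of the 6 γδ arrays, that of Smyd2 without any but Rptor-/- array 1 and that of Tpd52 without any but WT array 1, while those of Unc93b1 and Frmd4a held. Both selecting comparisons use the WT γδ arrays, so an error of those arrays enters both.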

How the data were processed

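Total RNA (12 ng per array) from sorted thymocytes was amplified, labelled and hybridised to 1-colour arrays, per the labels' protocols. The authors deposited log2 signals per probe set, made with RMA in Partek 6.6 per the submitters' processing notes. The further settings are not given in the sources used here. RMA was probably run apart for ISP arrays and for the others, judged from the array medians alone, so no ISP level was set against another population.

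Of 41345 probe sets, 23521 had 1 gene symbol in the platform annotation, 1814 had several and 16010 had no name there; 23328 symbols were updated by Entrez ID. The probe set with the highest mean was kept for each of 22180 genes. Differences were tested with limma 3.58.1 (R 4.3.3) in 1 model of the 6 group means over 19 arrays, with an adjusted p (Benjamini-Hochberg over all genes) under 0.05 called. There were 4 comparisons and 3 interactions. The number of arrays limits the precision. The test was tried on simulated data first. A 95% interval is for the unadjusted difference.

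The members, Rptor, from each list the up to 4 called genes with the smallest p per comparison, and the 5 genes most like Myc were named; Eif4a1 and those with promoter sequences printed fall outside that rule. The members and lists were chosen with earlier results of these data known, so list counts are descriptions. Alternatives were other sets of arrays, probe set means, a filter on low signal, median centring, quantile normalization, an intensity trend, a replicate block and leaving out each array. Figures were drawn with matplotlib 3.10.9.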

Additional observations from a re-analysis of the deposited data

Results flagged for a closer look

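In 4 WT ISP arrays, a single array stood far from the other 3 by Dixon's test for 8 genes of 56 checked. It was array 3 for Mycn (4.07), Mycl (2.95), Max (10.27), Mxd4 (7.84), Rptor (6.34) and Trrap (7.66), array 2 for Lef1 (10.31) and array 1 for Ndrg2 (6.00). Chance flags about 1 in 20 such groups, and the many tied ISP values raise that share.

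The genotype effect differed between populations by the interaction term for these genes, on the log2 scale. In ISP minus DN3a cells it was −0.58 for Mycn, −0.78 for Mycbp, −0.45 for Kat2a, −0.57 for Sap30 and 0.49 for Gsk3b. It was −0.70 for Bop1, −1.23 for Ccnd2, −0.82 for Srm, −1.20 for Ndrg1 and 0.74 for Top2a in the same pair.

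Between ISP and γδ T cells the term was 0.77 for Mxd3, −0.53 for Mnt, −0.58 for Mycbp, −0.56 for Kat2a and 0.48 for Gsk3b. It was 0.58 for Lef1, −0.70 for Bop1, −1.37 for Ccnd2, −1.11 for Srm, −0.79 for Ndrg1, 1.13 for Top2a and 0.97 for Mki67. In γδ minus DN3a cells it was −0.66 for Lef1 and −0.96 for Ndrg2. Pairs that share a population share its arrays, and ISP sizes are on another scale.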

How the results depend on the processing

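Of 537 values of members under alternatives other than leaving out an array, 509 kept their side of the threshold, 15 no longer passed and 13 newly passed. The sign changed for 13 values (−0.088 to 0.036), of which 0 were called in the full model or under the alternative, most under centring or quantile normalization. Newly called were Mnt (5 settings) and Mxd3 (3) between WT cells, Myc for ISP minus γδ (3) and Mxi1 in ISP (2). With only the arrays compared, genes called numbered 1313 in ISP (also the whole set of ISP arrays; 2759 in the full model), 144 in DN3a (218) and 345 in γδ (677), and the calls were lost of Mnt in ISP (−0.34), Mycn in DN3a (0.54), Myc in γδ (0.42), Mlx between WT cells (0.22, also with all γδ and DN3a arrays) and the Mnt difference between ISP and γδ (−0.53). Fewer arrays leave fewer degrees of freedom there, and the cause of the lost calls was not tested. Quantile normalization ended the Mnt calls (ISP −0.31, ISP minus γδ −0.47), and median centring that of Mlx (0.20); the cause was not tested.

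The labels do not say that replicate numbers pair samples, and correlations of same-numbered arrays ran from −0.10 to 0.24, so no pairing was taken as shown. With the replicate number as a block, calls numbered 0 in ISP (where WT array 4 has no partner and no gene passed), 275 in γδ, 65 for γδ minus DN3a and 793 for ISP minus γδ, against 2759, 677, 133 and 1283. Under that block Mnt in ISP (−0.34), Myc (0.42) and Mxd3 (−0.50) in γδ, Mlx between WT cells (0.22) and Mnt between ISP and γδ (−0.53) were not called. None of the 33 activated targets was called in ISP cells under it, where 23 were in the full model, and 8 of 11 cycling genes in γδ, where 10 were.

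Leaving out each array gave −0.48 to −0.24 for Mnt in ISP, 0.42 to 0.61 for Mycn in DN3a, 0.35 to 0.49 for Myc and −0.58 to −0.44 for Mxd3 in γδ, and 0.17 to 0.27 for Mlx between WT cells. Interactions ran from −0.65 to −0.46 for Mycn and −0.67 to −0.43 for Mnt. Genes called numbered 124 to 254 in DN3a, 333 to 782 in γδ, 76 to 161 for γδ minus DN3a, 1013 to 1647 for ISP minus DN3a and 853 to 1308 for ISP minus γδ. They moved by over 1.5 times without Rptor-/- DN3a array 2 or a WT DN3a array (124 to 144 in DN3a), without Rptor-/- γδ array 2 (363) or WT γδ array 2 or 3 (333 and 434) in γδ, without any of these (76 to 88) for γδ minus DN3a, without WT DN3a array 1 (1013) for ISP minus DN3a and without WT γδ array 3 (853) for ISP minus γδ. The WT differences of Myc (−1.75 to −1.61 with an array left out, down to −1.86 otherwise), Mycn and Mxd1 were called under every alternative run. The share of calls that were higher moved to 54.9% (from 72.5%) in DN3a with quantile normalization and to 74.9% (from 58.1%) in γδ with centring. It moved for the interactions to 54.0% (41.2%) for ISP minus DN3a with quantile normalization, to 24.0% with centring and 47.4% with quantile normalization (37.3%) for ISP minus γδ, and to 75.4% (65.4%) for γδ minus DN3a with centring. Signal over background is not part of these values, so what low signal limits is unknown.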
